A study of Mus musculus with 12 samples.

Results

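The glutathione peroxidases were described here through 6 of their genes, *Gpx1*, *Gpx2*, *Gpx3*, *Gpx4*, *Gpx7* and *Gpx8*. They were found by symbol among the 54532 rows of a table of gene expression in mouse colonoids, which are organoids grown from colonic epithelial stem cells. Each of the 6 symbols matched 1 row. The rule used names and no measured value.

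Glutathione peroxidases reduce peroxides to water or alcohols, and most of them draw the electrons from glutathione, the abundant thiol tripeptide of the cytosol. GPX1, GPX2, GPX3 and GPX4 are selenoproteins in the mouse, whereas GPX7 and GPX8 carry cysteine at the catalytic position and reside in the endoplasmic reticulum (ER). GPX1 is the widespread cytosolic enzyme, GPX2 is the form typical of gastrointestinal epithelium, GPX3 is secreted, and GPX4 reduces phospholipid hydroperoxides in membranes and thereby restrains ferroptosis, an iron-dependent form of cell death.

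Colonoids came from 8- to 12-week-old mice with floxed *Hmox1* alleles, either Hmox1 fl/fl without Cre (control) or Hmox1 ΔIEC, in which Cre under the Vil1 promoter, active in intestinal epithelium, is meant to delete *Hmox1* there (labelled KO). *Hmox1* encodes heme oxygenase 1, the inducible enzyme that degrades heme. All groups were grown in L-WRN conditioned medium and received either vehicle or hemin, the chloride salt of ferric heme, for 24 hours at 200 μM, and poly-A RNA of 3 libraries in each of the 4 groups was sequenced. The labels number the libraries of a group 1 to 3 and do not say whether they came from separate animals or cultures, so the p-values measure the spread between these libraries, which may be technical. The genotype of KO hemin replicate 3 is written in the labels as floxed alleles with Vil1 Cre, and that of the other KO libraries as ΔIEC.

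Fragments on genes numbered between 11648801 and 25101868 per library, with the control hemin libraries the shallowest (11648801 to 11935604). *Hmox1* was lower in KO than in control libraries under vehicle, with mean FPKM of 2.52 and 7.45, but higher under hemin, with 1314 and 456, opposite in direction to the KO label. Gene-level FPKM counts fragments of every exon, so these values do not check the deleted part, and every direction between genotypes below rests on the label. All 9 epithelial markers examined (*Epcam*, *Cdh1*, *Vil1*, *Krt8*, *Krt18*, *Krt19*, *Krt20*, *Cdx2* and *Muc2*) had a mean FPKM of at least 1 in each group. Their summed FPKM was 5762 to 5816 in KO vehicle libraries and 7512 to 10176 in the other libraries. The 16 stromal and immune markers summed to between 2.08 and 6.39 FPKM, and apart from *Cd68* and *Pdgfrb* the highest value of any of them in a library was 0.211 FPKM.

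The stretches of coding sequence around the catalytic codon are shown because this codon divides the family into selenocysteine and cysteine enzymes. They were read from GENCODE M21 transcripts of the GRCm38 genome, 5′ to 3′ in the sense of each gene, with the catalytic codon in capitals. TGA, elsewhere a stop codon, is read as selenocysteine in 4 members, and TGT or TGC encodes cysteine in the other two. For *Gpx7* and *Gpx8* the codon is the one at the matching position of the coding sequence.
Gpx1: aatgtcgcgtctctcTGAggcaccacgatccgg
Gpx2: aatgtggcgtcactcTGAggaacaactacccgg
Gpx3: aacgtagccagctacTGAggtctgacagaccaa
Gpx4: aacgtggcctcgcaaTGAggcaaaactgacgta
Gpx7: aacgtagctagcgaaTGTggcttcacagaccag
Gpx8: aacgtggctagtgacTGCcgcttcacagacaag

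On the genome (GRCm38, the assembly also called mm10), the codon of *Gpx1* lies in exon 1 of 2, at 108339451 to 108339453 on chromosome 9 (plus strand). That of *Gpx2* lies in exon 1 of 2, at 76795256 to 76795258 on chromosome 12 (minus strand). *Gpx4* has it in exon 3 of 7 of transcript Gpx4-201, at 80054737 to 80054739 on chromosome 10 (plus strand), and *Gpx3* in exon 2 of 5, at 54907256 to 54907258 on chromosome 11 (plus strand). In *Gpx7* it is in exon 2 of 3, at 108403430 to 108403432 on chromosome 4 (minus strand), and in *Gpx8* in exon 2 of 3, at 113045661 to 113045663 on chromosome 13 (minus strand). The selenocysteine codons are decoded by a dedicated machinery whose genes are described after the members.

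Levels are given as FPKM (fragments per kilobase, with library totals that the authors had scaled against each other), as deposited. Differences between groups were tested with limma on log2(FPKM + 1) across the 12740 genes that reached 1 FPKM in 3 or more of the 12 libraries. A gene was called when its adjusted p (Benjamini-Hochberg, over all these genes) was under 0.05 and its log2 difference exceeded 1 in size, and "rose" and "fell" are used for called genes only. *Gpx1*, *Gpx2*, *Gpx4* and *Gpx7* passed the filter on low values, and *Gpx3* and *Gpx8* did not. Single genes were not tested by permutation, since 3 against 3 libraries allow no exact permutation p under 0.1. In bulk colonoids, fewer cells of a type and less RNA per cell cannot be told apart.

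*Gpx2* (ENSMUSG00000042808, chromosome 12, 76792333 to 76795554, minus strand) was the member with the highest level in both KO groups. Its FPKM was 220, 231 and 249 in the control vehicle libraries and 258, 365 and 218 in the control hemin libraries (replicates 1, 2 and 3). In the KO libraries it was 310, 322 and 311 with vehicle and 742, 704 and 776 with hemin. The KO hemin libraries were above all 9 others, the KO vehicle libraries were above the control vehicle libraries, and the control hemin libraries overlapped both vehicle groups. With a coefficient of variation of 27.2%, the control hemin group was also the least uniform for *Gpx2*, against 2.1 to 6.12% in the other groups.

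Among hemin-treated colonoids, *Gpx2* rose 2.64-fold in mean FPKM in KO over control, a log2 difference of 1.43 (SE 0.15, limma adjusted p = 2.3e-05). It was the single member called, of 4 tested, where 3.10% of all tested genes were called higher, 2.91% lower and 6.01% in all. Hemin raised *Gpx2* 2.36-fold in KO colonoids (log2 difference 1.23, SE 0.15, limma adjusted p = 3.1e-05), or 0.89 and short of the fold limit when values were rescaled to TPM, which has the same sum over all genes in every library. In control colonoids, the log2 difference of hemin over vehicle was 0.23 (95% confidence interval −0.09 to 0.56, limma adjusted p = 0.22). It was 0.40 (adjusted p = 0.017) without control hemin replicate 3, the lowest library, and 0.02 without control hemin replicate 2, the highest. Under vehicle, KO exceeded control by 0.43 (SE 0.15, limma adjusted p = 0.044), short of the fold limit. This adjusted p was under 0.05 in 12 of 25 alternatives and ranged from 0.00076 to 0.12 over them.

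Some epithelial markers moved along with the groups in which *Gpx2* differed. *Muc2*, a goblet cell mucin, had mean FPKM of 104, 58.5, 72.5 and 6.41 in control vehicle, control hemin, KO vehicle and KO hemin libraries, and *Cdx2*, an intestinal transcription factor, had 202, 204, 48.7 and 82.3. Of the 9 markers, 2 were called between hemin-treated genotypes (*Muc2* with a log2 difference of −3.01 and *Cdx2* with −1.27), both lower in KO, where 2.91% of all tested genes were, and the median of the 9 was −0.18. For hemin in KO, *Krt20* (1.41) and *Vil1* (1.28) were called higher, where 4.87% of all tested genes were, and *Muc2* (−3.32) lower, where 8.07% were. The median of the 9 was 0.74. By limma adjusted p alone 7 of the 9 were higher and 2 lower, where 60.4% of all tested genes passed in either direction. *Cd68*, listed as a macrophage marker, was also called higher with hemin in KO (log2 difference 1.14, limma adjusted p = 0.0018), from a mean of 1.07 to 3.54 FPKM. Apart from *Cd68* and *Pdgfrb*, the 16 stromal and immune markers did not pass the filter on low values. None of those exceeded 0.211 FPKM in a library, so a change in macrophages was not tested. Under vehicle *Cdx2* was called lower in KO (−2.03), where 3.27% of all tested genes were, and the median of the 9 was −0.50. The interaction was called for *Muc2* (−2.51), where 2.56% of all tested genes were called lower. The summed epithelial FPKM of the KO hemin libraries was 7512 to 8797 and that of the control hemin libraries 8181 to 10176. The part of these markers in the *Gpx2* result was not tested.

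**Figure D1:**
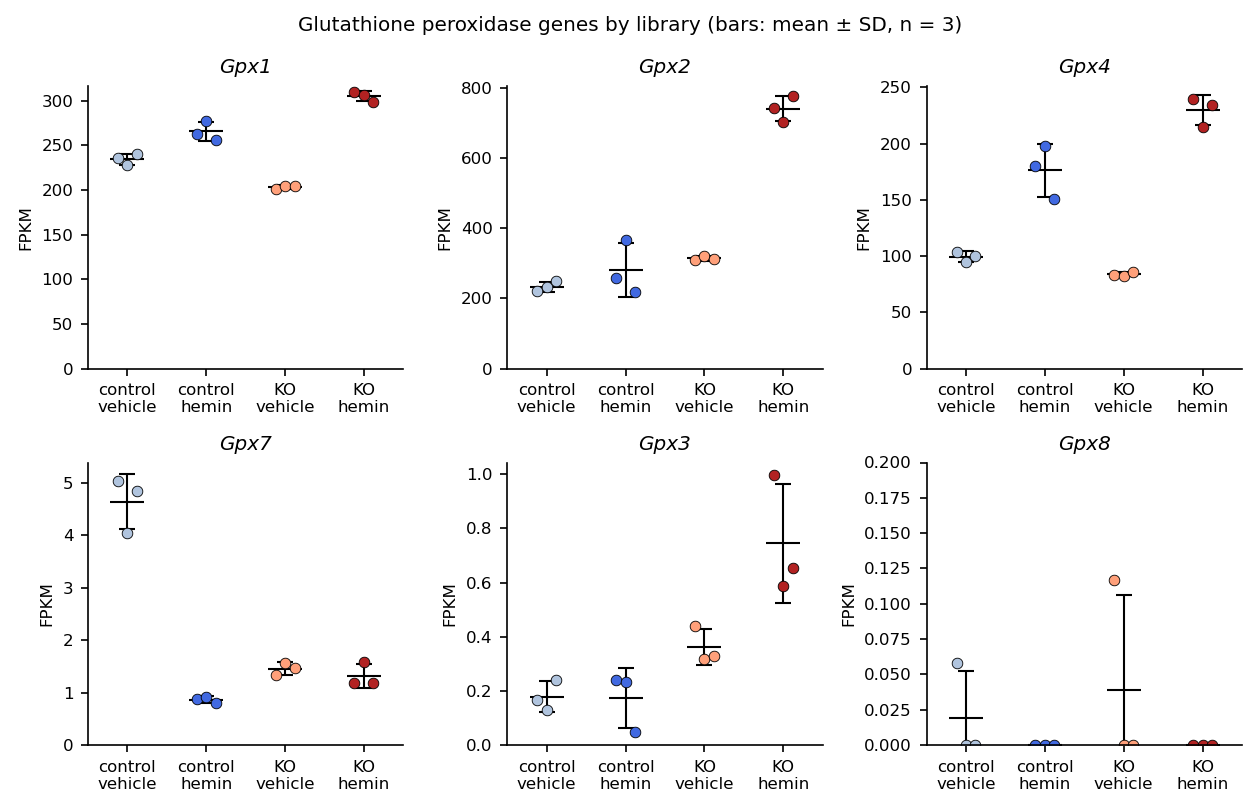
FPKM (vertical axes, linear, from 0 and scaled per gene) of the 6 members in each library (points) of the 4 groups, with mean and SD as bars (n = 3). *Gpx2* stands at 704 to 776 FPKM in KO hemin libraries against at most 365 elsewhere, and *Gpx7* at 4.04 to 5.03 in control vehicle libraries against at most 1.58 elsewhere.

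*Gpx1* (ENSMUSG00000063856, chromosome 9, 108338903 to 108340343, plus strand) spanned the narrowest range of the 3 abundant members. The FPKM of its control libraries was 236, 228 and 240 with vehicle and 263, 278 and 256 with hemin. In KO libraries *Gpx1* stood at 201, 204 and 205 with vehicle and at 310, 307 and 299 with hemin. The 4 groups did not overlap, in the order KO vehicle, control vehicle, control hemin, KO hemin.

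None of these differences of *Gpx1* passed the fold limit. The log2 difference of hemin over vehicle was 0.58 in KO (SE 0.05, limma adjusted p = 3.2e-06) and 0.18 in control (SE 0.05, limma adjusted p = 0.015), or 0.25 (adjusted p = 0.27) and −0.01 (adjusted p = 0.97) when values were rescaled to TPM. KO exceeded control by 0.20 under hemin (SE 0.05, limma adjusted p = 0.012) and was 0.21 below it under vehicle (log2 difference −0.21, SE 0.05, limma adjusted p = 0.01). In TPM these differences were 0.20 (adjusted p = 0.53) and −0.06 (adjusted p = 0.86).

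*Gpx4* (ENSMUSG00000075706, chromosome 10, 80047166 to 80056439, plus strand) was the third of the abundant members in each group. With vehicle, its FPKM was 104, 94.4 and 99.99 in control and 83.0, 82.4 and 85.6 in KO libraries. With hemin, *Gpx4* reached 180, 198 and 151 in control and 240, 215 and 235 in KO libraries. Every hemin library was above every vehicle library, and the KO hemin libraries were above the control hemin libraries.

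In KO colonoids, hemin raised *Gpx4* 2.75-fold (log2 difference 1.45, SE 0.09, limma adjusted p = 2.3e-07). In control colonoids the ratio was 1.77, a log2 difference of 0.81 (SE 0.09, limma adjusted p = 3e-05) that stayed under the fold limit. *Gpx4* and *Gpx2* were the 2 members called higher for hemin in KO, of 4 tested, where 4.87% of all tested genes were called higher, 8.07% lower and 12.9% in all. Between the hemin-treated genotypes, the log2 difference of *Gpx4* was 0.39 (SE 0.09, limma adjusted p = 0.007), and under vehicle it was −0.25 (SE 0.09, limma adjusted p = 0.061). *Gpx4* transcripts encode several forms of the enzyme, among them cytosolic and mitochondrial ones, which gene-level FPKM cannot separate. Gpx4-201, used here for codon position and length, is the longest coding transcript, with 253 codons and the selenocysteine at codon 129.

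*Gpx7* (ENSMUSG00000028597, chromosome 4, 108400390 to 108406961, minus strand), an ER member that passes oxidizing equivalents from peroxide to protein disulfide isomerases, had a different pattern. Its FPKM was 5.03, 4.04 and 4.85 in control vehicle libraries and 0.884, 0.918 and 0.797 in control hemin libraries. The KO libraries had 1.33, 1.57 and 1.47 FPKM of *Gpx7* with vehicle and 1.19, 1.58 and 1.19 with hemin. The control vehicle libraries were above all others, the control hemin libraries were below all others, and both KO groups overlapped. These levels rest on 86 to 107 *Gpx7* fragments per control vehicle library, 12 to 14 per control hemin library and 22 to 48 per KO library.

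In control colonoids *Gpx7* fell with hemin, from a mean of 4.64 to 0.866 FPKM (log2 difference −1.59, SE 0.10, limma adjusted p = 3.4e-07). It was the single member called, of 4 tested, where 5.93% of all tested genes were called lower, 2.17% higher and 8.11% in all. In KO colonoids the log2 difference of hemin over vehicle was −0.09 (95% confidence interval −0.30 to 0.12, limma adjusted p = 0.45). Under vehicle, *Gpx7* was 3.18 times higher in control than in KO libraries (log2 difference of KO over control −1.20, SE 0.10, limma adjusted p = 2.7e-06), and again no other tested member was called, where 3.27% of all tested genes were called lower, 3.53% higher and 6.80% in all. Under hemin, KO exceeded control by 0.31 (SE 0.10, limma adjusted p = 0.028), short of the fold limit, and this adjusted p was under 0.05 in 15 of 24 alternatives (0.013 to 0.17). Because the pseudocount of 1 compresses the differences of a gene at this level, limma-voom on recovered fragments gave −2.37 for hemin in control, −1.65 for KO over control under vehicle and 0.61 (adjusted p = 0.13) for KO over control under hemin. Under vehicle, 6 of the 9 epithelial markers were lower in KO by limma adjusted p and none higher, where 34.2% of all tested genes passed in either direction. Their median was −0.50. *Cd68*, 1 of the 2 tested stromal and immune markers, was lower too (−0.82, limma adjusted p = 0.022) and was called by limma-voom. The part of these markers in the *Gpx7* result was not tested.

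*Gpx3* (ENSMUSG00000018339, chromosome 11, 54902453 to 54910377, plus strand), the secreted form, was close to the limit of detection. It had 5, 4 and 6 fragments in the control vehicle libraries and 5, 5 and 1 in the control hemin libraries. The KO libraries held 13, 10 and 10 *Gpx3* fragments with vehicle and 26, 25 and 17 with hemin. In FPKM, the KO hemin libraries (0.586 to 0.996) were above all others and the KO vehicle libraries (0.319 to 0.439) were above both control groups (0.0472 to 0.242). In limma-voom on the recovered fragments of 20117 genes, an alternative added after seeing the data, *Gpx3* was higher in KO hemin than in control hemin libraries by 2.09 on the log2 scale (SE 0.51, adjusted p = 0.0065). The same fit gave adjusted p-values of 0.062 for hemin in KO, 0.18 for KO over control under vehicle and 0.87 for hemin in control. In limma on log2(FPKM + 1) without the filter, *Gpx3* was not called in any comparison, with 0.57 between hemin-treated genotypes (adjusted p = 0.0029) and 0.35 for hemin in KO (adjusted p = 0.021).

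*Gpx8* (ENSMUSG00000021760, chromosome 13, 113042753 to 113046410, minus strand), the other ER member, had 1 fragment in control vehicle replicate 1, 2 fragments in KO vehicle replicate 1 and 0 in the other 10 libraries. A count of 0 allows up to 3 fragments per library, so no difference of *Gpx8* was detectable at this depth. The remaining paralogs of the table, which were not members, were *Gpx5*, at 0 in every library, and *Gpx6*, at no more than 0.0621 FPKM.

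The difference between the genotypes in the response to hemin was fitted as an interaction term. It was called for *Gpx7* (log2 1.50, SE 0.14, limma adjusted p = 2.6e-05, or 2.25 in limma-voom) and for *Gpx2* (log2 1.00, SE 0.21, limma adjusted p = 0.0054, or 0.85 with adjusted p = 0.15 in TPM), which makes 2 of 4 tested members called higher, where 2.57% of all tested genes were called higher, 2.56% lower and 5.13% in all. The 2 interactions differ in where the change lay, since *Gpx2* rose with hemin in KO while *Gpx7* fell with hemin in control. The *Gpx2* value lies at the fold limit itself, and the call was lost in 10 of 24 alternatives, among them the omission of any of 7 single libraries, with values from 0.84 to 1.21 over all libraries omitted in turn. For *Gpx4* the interaction was 0.63 (SE 0.13, limma adjusted p = 0.0048) and for *Gpx1* 0.40 (SE 0.07, limma adjusted p = 0.0025), or 0.49 (adjusted p = 0.34) and 0.26 (adjusted p = 0.65) in TPM.

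By adjusted p alone, all 4 tested members differed between the hemin-treated genotypes, each with the higher level in KO, where 34.4% of all tested genes passed. The count was 3 of 4 for hemin in control (49.9% of all tested genes), 3 of 4 for hemin in KO (60.4%), 3 of 4 between genotypes under vehicle (34.2%) and 4 of 4 for the interaction (23.8%). In TPM the counts by adjusted p alone were 1, 2, 2, 1 and 1 of 4 in the same order, and *Gpx2* was the one member that passed between the hemin-treated genotypes. With only the groups compared in the fit, the count for the hemin-treated genotypes was also 1 of 4. It was 3 of 4 with the replicate block and in limma-voom. A lack of overlap between the groups compared was also common, at 40.9% of tested genes for the hemin-treated genotypes, 52.4% for hemin in control, 74.4% for hemin in KO and 57.5% for the genotypes under vehicle. Counts of members by these criteria are to be read against these shares.

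**Figure D2:**
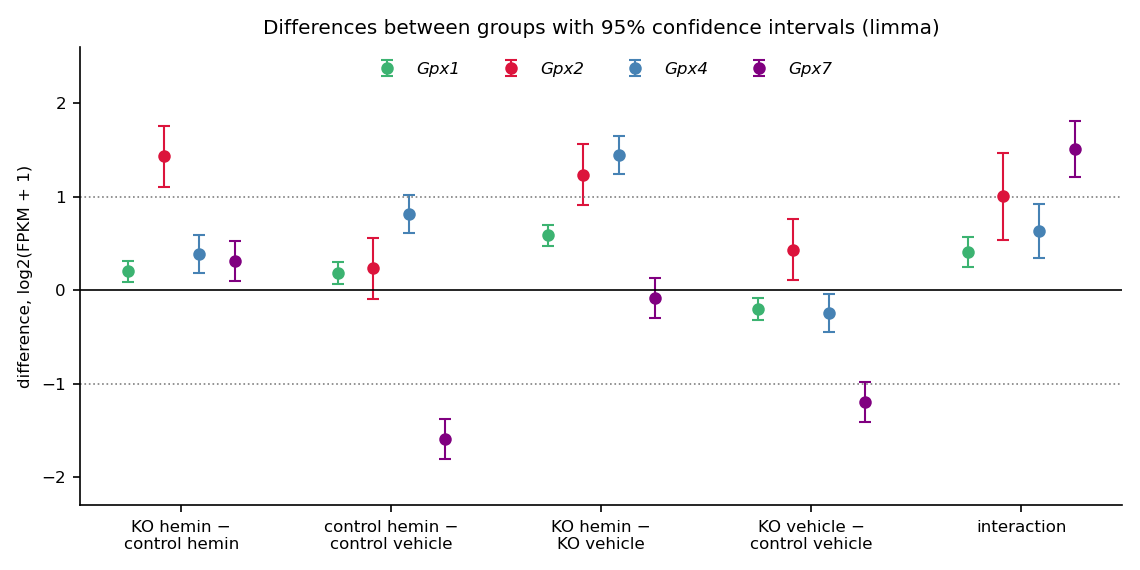
Log2 differences (vertical axis, log2(FPKM + 1)) of the 4 tested members in 5 comparisons (horizontal axis), with 95% confidence intervals from limma. Dotted lines mark the fold limit of 1. *Gpx2* is the single member past the limit between hemin-treated genotypes (1.43), *Gpx4* and *Gpx2* are past it for hemin in KO (1.45 and 1.23), and *Gpx7* is past it in the negative direction for hemin in control (−1.59) and for KO under vehicle (−1.20).

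Summed over the 6 members, family FPKM was 572 ± 18.9 (SD, n = 3) in control vehicle, 724 ± 109 in control hemin, 603 ± 7.52 in KO vehicle and 1278 ± 44.6 in KO hemin libraries. The KO hemin libraries (1227 to 1312) were above all others, while the control hemin libraries (627 to 842) were above both vehicle groups (557 to 610). The latter order depends on the scale, since with the lengths of the coding transcripts in place of the deposited gene lengths control hemin replicate 3 (1266) was below the KO vehicle libraries (1351 to 1391), and in TPM the control hemin mean (1950) was below the KO vehicle mean (2026). The ratio of hemin to vehicle was 2.12 in KO and 1.26 in control. *Gpx2* made up 63.2% of the increase in KO, *Gpx4* 21.7% and *Gpx1* 15.1%, or 76.7, 15.1 and 8.16% with coding transcript lengths. Of the increase in control, *Gpx4* made up 50.8%, *Gpx2* 31.1% and *Gpx1* 20.6%, with *Gpx7* at −2.49%. With coding transcript lengths *Gpx2* came first there, at 45.3%, before *Gpx4* at 42.5% and *Gpx1* at 13.4%. The *Gpx2* part in control rests on control hemin replicate 2, without which it was 5.00% of the increase in deposited FPKM and 8.78% with coding transcript lengths, while that of *Gpx4* was 71.7 and 72.2%. Totals and shares were described and not tested.

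As a share of the family total, *Gpx2* was 40.8% ± 1.60 (SD, n = 3) in control vehicle, 38.3% ± 4.50 in control hemin, 52.1% ± 0.574 in KO vehicle and 58.0% ± 1.07 in KO hemin libraries. Both KO groups were thus above both control groups, whose highest library had 43.4%. *Gpx1* was 41.0% ± 0.678, 37.1% ± 4.0, 33.7% ± 0.231 and 23.9% ± 1.10 in the same order. Its share was lowest in KO hemin libraries, where its own FPKM was highest, and the shares of control hemin and KO vehicle libraries overlapped. *Gpx4* was 17.4% ± 0.872, 24.4% ± 1.08, 13.9% ± 0.348 and 18.0% ± 0.525, with the control hemin libraries above all others. *Gpx7*, *Gpx3* and *Gpx8* together were below 1% of the total.

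In order of level, *Gpx1* and *Gpx2* overlapped in control libraries of either treatment, where *Gpx1* had the higher mean with vehicle and *Gpx2* with hemin. In KO libraries *Gpx2* was above *Gpx1* without overlap. *Gpx4*, *Gpx7*, *Gpx3* and *Gpx8* followed in this order in each of the 4 groups. By mean FPKM among all 54532 rows, *Gpx2* ranked 159th in control vehicle, 145th in control hemin, 104th in KO vehicle and 35th in KO hemin libraries. *Gpx1* ranked between 133rd and 186th and *Gpx4* between 189th and 559th over the groups.

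The order of *Gpx1* and *Gpx2* depends on the gene length behind the FPKM. The deposited length of *Gpx2* is 3222 bases, equal to the span of the gene, because the exons are merged with those of an annotated retained-intron transcript of 3165 bases. The coding transcript Gpx2-201 has 1067 bases, so its level per transcript length is 3.02 times the deposited FPKM. The same factor is 1.34 for *Gpx1* (1441 and 1072 bases), 1.73 for *Gpx4* (1724 and 995 bases) and 1.00 for *Gpx7*. Per coding transcript length, *Gpx2* was 58.8%, 55.5%, 69.3% and 73.4% of the family total in control vehicle, control hemin, KO vehicle and KO hemin libraries, and was the highest member in each group. FPKM ratios of one gene between groups do not depend on its length. Whether strand was used in counting is not given in the sources used here, so fragments from the opposite strand were not excluded.

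**Figure D3:**
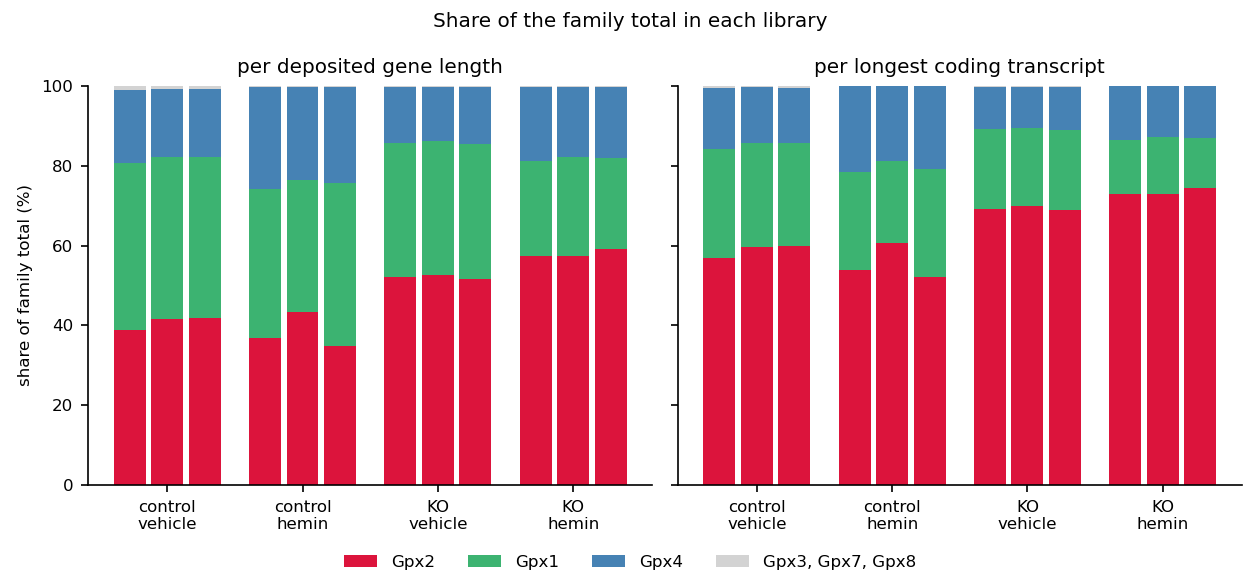
Share of the family total (vertical axis, percent) taken by *Gpx2*, *Gpx1*, *Gpx4* and the other members in each library (bars, replicates 1 to 3 from left to right in each group), with deposited gene lengths (left) and with the longest coding transcript of each gene (right). The *Gpx2* share is higher in both KO groups than in both control groups on either scale, with group means of 52.1 and 58.0% against 40.8 and 38.3% on the left.

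*Gpx4* has a transcribed processed pseudogene, *Gpx4-ps2* (ENSMUSG00000110841, chromosome 10, 45875291 to 45876086, plus strand), a copy of its spliced RNA elsewhere on the chromosome. Over 733 aligned bases, its transcript is 99.7% identical to Gpx4-201, with identical runs of up to 314 bases, so reads cannot always be assigned to one of them. *Gpx4-ps2* held 402 to 1614 fragments per library, which was 15.6 to 20.0% of the *Gpx4* fragments. Its FPKM was 36.6 to 40.3 in control vehicle, 65.4 to 75.1 in control hemin, 30.4 to 31.9 in KO vehicle and 79.3 to 86.2 in KO hemin libraries, the order of groups seen for *Gpx4*. Adding these fragments to *Gpx4* changed no call. *Gpx2-ps1*, a processed pseudogene of *Gpx2* with 98.1% identity over 572 bases, held at most 0.110% of the *Gpx2* fragments.

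**Figure D4:**
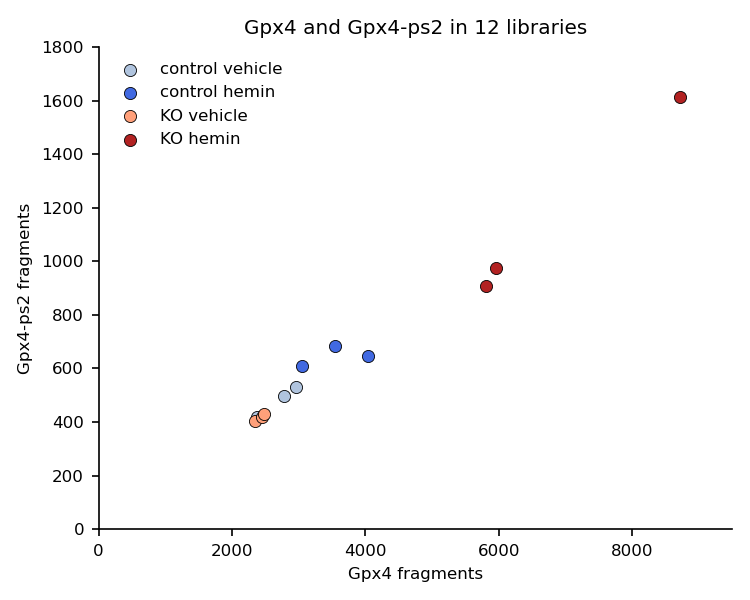
Fragments on *Gpx4-ps2* (vertical axis) against fragments on *Gpx4* (horizontal axis) in each of the 12 libraries (points, coloured by group), both axes linear from 0 and not corrected for depth. The pseudogene stays between 15.6 and 20.0% of its parent in all libraries.

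The levels of other genes were compared with each member over the 12 libraries, which fall into 4 groups, so the coefficients mainly follow the group means and are given as a description. Among tested genes whose mean FPKM was 5 or more, the Pearson r was highest with *Tmem43* (0.987), *Lima1* (0.982) and *Plk3* (0.981) for *Gpx2*. For *Gpx4* the nearest were *Itgb5*, *Ftl1-ps1* and *Cd151*, each with r = 0.993. *Gpx1* was nearest to *Ceacam18* (0.987), *Slc35f6* (0.986) and *Vps4a* (0.983), and *Gpx7* to *Slc4a11* (0.969), *Cyp51* (0.960) and *Ndrg1* (0.953). No gene was among the 3 nearest of more than 1 member.

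The promoters of the members, from 250 bases before to 50 after each annotated start (RefSeq, GRCm38.p6), were searched for TGACNNNGC, the core of the antioxidant response element, on both strands. None of the 9 promoter entries of the 6 genes holds these letters, against 12.4% of 32851 mouse promoter windows of the same length. This covers these letters in these windows and no other part of the genes.

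The pathway around the family was read from 5 gene lists. In the list of glutathione synthesis and reduction, all 8 genes were tested, and 7 rose with hemin in KO colonoids, where 4.87% of all tested genes were called higher, and 5 in control colonoids, where 2.17% were. The median log2 difference of the list was 2.41 in KO and 1.09 in control, where that of all tested genes was 0.00 and −0.01. *Gclc*, the catalytic subunit of the enzyme for the first step of glutathione synthesis, rose by 4.61 in KO and 2.66 in control on the log2 scale (limma adjusted p = 5.1e-11 and 5.2e-09). *Slc7a11*, the cystine importer, rose by 4.11 and 1.46 (limma adjusted p = 1.2e-10 and 4.8e-07), and *Gclm*, the modifier subunit that pairs with *Gclc*, by 2.84 and 1.89 (limma adjusted p = 5.1e-11 and 2.1e-09). *Slc3a2* rose by 2.76 in KO, and *Gss*, glutathione synthetase, by 1.15 in control. *Gss* rose in KO as well, from a mean of 31.5 to 98.8 FPKM. The one gene of the list not called with hemin in KO was *Gsr* (0.89, limma adjusted p = 7.9e-08), glutathione reductase, which returns the glutathione oxidized by peroxidases to its reduced form.

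Between hemin-treated genotypes 4 of the 8 glutathione genes were called higher in KO, where 3.10% of all tested genes were, with a median of 0.87. They were *Slc3a2* (1.73), which pairs with *Slc7a11* in the cystine importer, *Slc7a11* (1.40), *Gclc* (1.10) and *G6pdx* (1.00), which supplies NADPH. *Slc7a11* was the one gene of the list called under vehicle, where it was lower in KO (−1.25, limma adjusted p = 1.4e-06). By limma adjusted p alone, 6 of the 8 were lower and none higher in KO under vehicle, where 34.2% of all tested genes passed in either direction, with a list median of −0.57. For the interaction 5 of 8 were called higher, against 2.57% of all tested genes, led by *Slc7a11* (2.65), *Slc3a2* (2.28), *Gclc* (1.95) and *G6pdx* (1.13). The list was chosen with earlier results of these data known.

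Of the 11 genes of the selenocysteine machinery, none was called by limma on log2(FPKM + 1) in any of the 5 comparisons, in which 5.13 to 12.9% of all tested genes were called, and the medians were −0.06 to 0.03. Between 4 and 8 of the 11 had an unadjusted p under 0.05 in a comparison. Since 23.8 to 60.4% of all tested genes passed even the adjusted limit, these counts do not set the list apart. In all comparisons limma-voom called 1 gene of the list, *Lrp8*, for the interaction. By limma adjusted p alone, 5 were higher and 3 lower for hemin in KO, where 60.4% of all tested genes passed, and 3 were higher and 3 lower for hemin in control. *Sephs2*, which makes the selenium donor and is itself a selenoprotein, had mean FPKM of 41.9, 43.0, 34.2 and 42.9 in control vehicle, control hemin, KO vehicle and KO hemin libraries. *Secisbp2*, which binds the selenocysteine insertion element of selenoprotein mRNAs, had 7.33, 9.06, 6.16 and 9.96.

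Of 19 other selenoprotein genes 16 were tested, and limma called none between hemin-treated genotypes, where 6.01% of all tested genes were called. There 7 of the 16 had an unadjusted p under 0.05, where 34.4% of all tested genes passed even the adjusted limit. In that comparison limma-voom called 2, *Selenom* and *Selenon*. For hemin in KO 2 of the 16 were called higher and 2 lower, where 4.87 and 8.07% of all tested genes were, and limma-voom called 6, with *Dio1* and *Selenon* added. *Txnrd1*, cytosolic thioredoxin reductase, rose by 1.20 and *Msrb1*, a methionine sulfoxide reductase, by 1.10 on the log2 scale (limma adjusted p = 2.2e-08 and 2.7e-07). *Selenom* and *Selenoh* fell, with log2 differences of −2.64 and −1.73 (limma adjusted p = 3.2e-09 and 3.7e-07). For hemin in control, *Selenoh* (−1.28), *Dio1* (−1.21), a deiodinase, and *Selenom* (−1.03) fell, where 5.93% of all tested genes were called lower, and none rose. *Selenop*, the secreted selenium carrier, was higher in KO under vehicle (1.24), and the interaction was called for *Selenom* (−1.61).

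Among 7 other peroxide-removing enzymes, *Prdx1*, a cytosolic peroxiredoxin, rose with hemin by 2.25 in KO and 1.20 in control on the log2 scale (limma adjusted p = 6.8e-08 and 1.2e-05), with an interaction of 1.05 (limma adjusted p = 0.0012). *Cat*, catalase, rose with hemin in control (1.17, limma adjusted p = 5.5e-08) and was lower in KO than in control under hemin (−1.05, limma adjusted p = 9.3e-08). Its log2 difference was 0.95 for hemin in KO (limma adjusted p = 1.2e-07) and −0.83 for KO over control under vehicle (limma adjusted p = 5.8e-07), both short of the fold limit, with an interaction of −0.22 (limma adjusted p = 0.06). *Cat* was the one gene of this list called between hemin-treated genotypes, in the direction opposite to *Gpx2*, where 2.91% of all tested genes were called lower and 6.01% in all. For hemin in control 2.17% of all tested genes were called higher. With hemin in KO, *Prdx5* (1.06) and *Prdx6* (1.01) rose too and *Prdx4* (−1.12), the ER peroxiredoxin, fell. In that comparison 4.87% of all tested genes were called higher and 8.07% lower. Neither limma nor limma-voom called a gene of this list under vehicle, where limma called 6.80% of all tested genes. There 4 had an unadjusted p under 0.05, where 34.2% of all tested genes passed even the adjusted limit.

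The list of ER oxidative folding, the pathway of *Gpx7* and *Gpx8*, had 7 tested genes. *Pdia6*, a protein disulfide isomerase, fell with hemin in control (−1.03, limma adjusted p = 2.4e-07) and in KO (−1.0, limma adjusted p = 1.5e-07). In these comparisons 5.93% and 8.07% of all tested genes were called lower. No other gene of the list was called in any of the 5 comparisons, in which 5.13 to 12.9% of all tested genes were. Counts of 0 or 1 of 7 genes are to be read against these shares. The list medians were −0.53 for hemin in control and −0.22 for hemin in KO. Under vehicle, where *Gpx7* was lower in KO, neither limma nor limma-voom called a gene of the list, whose median was 0.07. Of all tested genes 6.80% were called by limma there. In the list 2 had an unadjusted p under 0.05, where 34.2% of all tested genes passed even the adjusted limit. Unadjusted p was under 0.05 for 4 genes of the list between hemin-treated genotypes and for 2 for the interaction, again with no call by either tool. In these comparisons 34.4 and 23.8% of all tested genes passed even the adjusted limit.

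**Figure D5:**
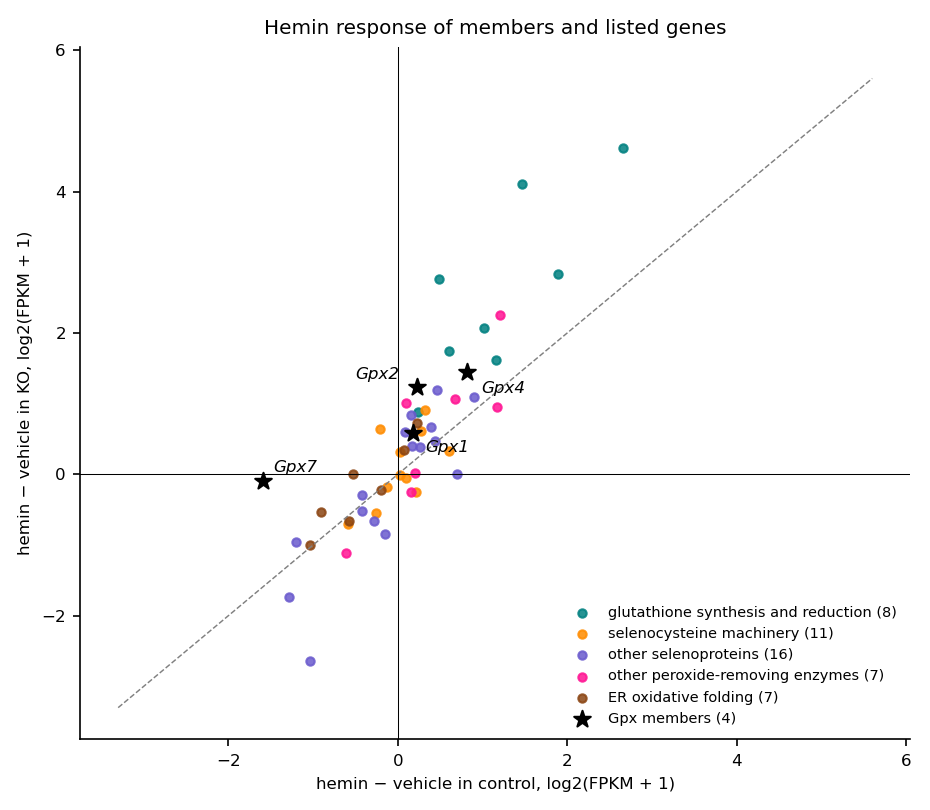
Log2 difference of hemin over vehicle in KO (vertical axis) against that in control (horizontal axis), both on the log2(FPKM + 1) scale, for the 4 tested members (stars) and the tested genes of 5 lists (coloured points). The dashed line marks equal differences. *Gpx2* (0.23 and 1.23) and *Gpx7* (−1.59 and −0.09) lie above it, as do the glutathione genes with the largest values.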

How the data were processed

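Poly-A RNA of 12 colonoid libraries was measured, 3 per group, with groups and replicate numbers from the sample labels and mouse age from the study's methods. The authors deposited 1 table of FPKM for 54532 genes with gene lengths. The submitters' processing notes name fastp, HISAT2 2.0.5, featureCounts 1.5.0-p3 and mm10. The deposited FPKM were whole multiples of 1 fragment, within 0.01 fragments, for 100% of values above 0, so fragments were recovered for depths, for floors (3 fragments) and for limma-voom. Median-of-ratios factors of the deposited FPKM were the same in every library (1.01), so the values were already balanced in that sense. No column of the table was left unmapped, and none holds a comparison. Fragment counts of 11648801 to 25101868 per library set the precision, and floors cover counting error only.

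The remaining values were obtained with limma 3.58.1 in R 4.3.3 and with Python 3.11.15, pandas 2.3.3 and matplotlib 3.10.9. limma was fitted to log2(FPKM + 1) of 12740 genes with 1 mean per group, no block and an intensity trend, leaving 8 residual degrees of freedom, with Benjamini-Hochberg adjustment, and was tested on simulated data first. Deposited lengths were compared with GENCODE M21, whose exon unions they equal for the 10 *Gpx* rows. Pseudogenes were aligned with blastn 2.17.0.

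The members and lists were chosen with earlier results of these data known. Named genes are the members, *Hmox1*, other *Gpx* rows, from each list the called genes (up to 4 per comparison by size) and the 3 genes nearest to each tested member. *Gsr*, *Sephs2*, *Secisbp2*, *Lrp8* and *Selenon* were named after their values were seen. Replicate numbers are not described as pairs, and same-numbered libraries did not deviate together (mean r = −0.042 over 18 pairs). Libraries of 1 group differed by more than sampling noise (chi-square per degree of freedom 1.93 to 43.1 over 12 pairs). Alternatives were a pseudocount of 0.1, no filter, a mean FPKM of at least 5, TPM, median-of-ratios scaling, the replicate block, no trend, only the groups compared, adjusted p alone, limma-voom, and each library left out. Added after seeing the data were limma-voom on genes with at least 10 fragments, TPM without *Gm23935*, pseudogene fragments added to their parents, and coding transcript lengths. Protein sequences were not used here.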

Additional observations from a re-analysis of the deposited data

Results flagged for a closer look

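The response of *Gpx2* to hemin differed between the genotypes in the test of the difference itself, by 1.00 on the log2 scale (limma adjusted p = 0.0054), with 0.23 in control and 1.23 in KO, but in TPM it was 0.85 (adjusted p = 0.15), and the call was lost in 10 of 24 alternatives. The response of *Gpx7* also differed in that test, by 1.50 on the log2 scale (limma adjusted p = 2.6e-05), with −1.59 in control and −0.09 in KO. The cause of neither difference was tested.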

How the results depend on the processing

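Of 491 values of single tested members under an alternative, 469 kept their direction and their call, which joins the limits on adjusted p and fold. On adjusted p alone 448 stayed on the same side of 0.05, 37 lost it (10 of them under TPM) and 6 gained it. Of these values 20 came from median-of-ratios scaling, whose factor was the same in every library and so could act only through the pseudocount, and 20 from adjusted p alone, which leaves the p as it is. The value for *Gpx1* and hemin in control turned to −0.012 under TPM, 10 calls were lost for the *Gpx2* interaction and 1 for another result, *Gpx2* and hemin in KO under TPM (0.89), and 10 were gained by adjusted p alone. In TPM the median log2 difference of all genes was −0.19 for hemin in control, −0.31 for hemin in KO, 0.16 for KO under vehicle and −0.11 for the interaction. In deposited FPKM it was −0.01, −0.002, 0.02 and 0.02. Relative to the TPM median, *Gpx1* for hemin in control stood at 0.18 and *Gpx2* for hemin in KO at 1.21. TPM also moved the split of genes called higher and lower from 277 and 756 to 264 and 1441 for hemin in control, from 620 and 1028 to 403 and 2334 for hemin in KO, and from 328 and 326 to 275 and 533 for the interaction. The replicate block changed no call of a member (for the *Gpx2* interaction 1.00, adjusted p = 0.012) and gave 761, 1028, 1649, 863 and 639 genes called. In the order hemin-treated genotypes, hemin in control, hemin in KO, genotypes under vehicle and interaction, the genes called were 766, 1033, 1648, 866 and 654. They were 422, 629, 1043, 392 and 334 with a mean FPKM of at least 5, 4383, 6359, 7694, 4362 and 3031 by adjusted p alone, and 2207, 2774, 4187, 2450 and 1369 in limma-voom with at least 10 fragments. A pseudocount of 0.1 gave 1342 and 1760 for the hemin-treated genotypes and hemin in control. For hemin in control and in KO, TPM gave 1705 and 2737 and TPM without *Gm23935* 1606 and 2475. limma-voom gave 1399, 1830, 2605 and 1304 for all but the interaction. Members called were 1, 1, 2, 1 and 2. With a mean FPKM of at least 5, *Gpx7* was filtered out, which left 0 for hemin in control, 0 under vehicle and 1 for the interaction. TPM gave 1 for hemin in KO and 1 for the interaction, TPM without *Gm23935* gave 1 for the interaction, adjusted p alone gave 4, 3, 3, 3 and 4, and limma-voom with at least 10 fragments gave 2 for the hemin-treated genotypes (*Gpx3* added) and 1 for the interaction. With each library left out in turn, genes called ranged from 759 to 844, 1014 to 1153, 1633 to 1681, 850 to 875 and 625 to 694, and members called for the interaction from 1 to 2. The *Gpx2* interaction was lost without control vehicle replicate 3, control hemin replicates 1 or 3, KO vehicle replicates 1 or 3, or KO hemin replicates 1 or 3, at 0.84 to 0.999, and its adjusted p was 7.8e-05 to 0.15 over 24 alternatives. Family totals in control vehicle, control hemin, KO vehicle and KO hemin libraries were 1742, 1950, 2026 and 3417 in TPM, 1197, 1511, 1369 and 3047 per coding transcript length, and 19943, 18554, 24444 and 55772 in fragments, which depend on depth. All *Gpx* rows together gave 612, 794, 636 and 1364 FPKM. The *Gpx2* share over the 4 groups was 38.1, 34.9, 49.5 and 54.3% of all *Gpx* rows, 59.3, 56.2, 69.7 and 74.0% of fragments and 58.8, 55.5, 69.3 and 73.4% per coding transcript length. With 1 library left out, totals ranged from 562 to 580, 664 to 772, 599 to 607 and 1261 to 1303 FPKM and *Gpx2* shares from 40.2 to 41.7, 35.8 to 40.1, 51.8 to 52.4 and 57.3 to 58.3%. Depth limits *Gpx3* and *Gpx8*, with at most 26 and 2 fragments per library.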
